A study of Bos taurus with 16 samples.

Results

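TLR2, TLR4 and CD14, the receptor genes of bacterial sensing, were followed in whole blood of beef steers that differed in residual feed intake (RFI). They were taken by identifier as ENSBTAG00000008008 for TLR2, ENSBTAG00000006240 for TLR4 and ENSBTAG00000015032 for CD14, and all 3 of these were found among the 27607 genes of the raw count, normalized count and FPKM tables. The 16 libraries came from 16 crossbred steers, 8 labelled high-RFI and 8 labelled low-RFI, chosen from the ends of a larger group and kept on the same high-forage ration. An animal with high RFI eats more than its weight and gain predict. Blood drawn from each steer on several days was composited before extraction, so that each steer gave 1 library, and ribosomal and globin RNA were depleted from it. Steers are numbered as in the labels, from 1 to 8 for low-RFI and from 9 to 16 for high-RFI. In the study's own listing of reads per library the read numbers, taken in listed order, follow the counts only when its group names are exchanged. The count columns are titled HFE for steers labelled high-RFI and LFE for steers labelled low-RFI, and the labels do not spell these letters out. The paper calls low-RFI steers the efficient ones, so HFE read as high feed efficiency would go against the labels. All directions given here are those of the sample labels, and they would turn round if the names of that listing applied.

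Toll-like receptors are membrane proteins of innate immune cells that bind conserved parts of microbes and signal through their cytoplasmic domain towards NF-kappa B and inflammatory cytokines. TLR4 recognises lipopolysaccharide of Gram-negative bacteria together with its partner LY96, and TLR2 recognises bacterial lipoproteins as a dimer with TLR1 or TLR6. CD14 is a membrane-anchored co-receptor without a signalling domain of its own. It takes up lipopolysaccharide and hands it to the TLR4 complex, and it also assists TLR2. In blood, all of these genes are typical of myeloid cells, CD14 above all of monocytes, and TLR2 and TLR4 of monocytes and neutrophils.

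The libraries held between 4.80 and 12.2 M counts, the fewest in steer 4 (low-RFI). The members were counted well in every library. Raw counts ran from 264 to 1175 per steer for TLR2, from 311 to 2164 for TLR4 and from 158 to 783 for CD14. The counting error, taken as Poisson, averaged 4.17% for TLR2, 3.37% for TLR4 and 4.70% for CD14, and it reached at most 7.96%, for CD14 in steer 14. It covers counting only. The gene lengths behind the FPKM were 3513 bp for TLR2, 3716 bp for TLR4 and 2790 bp for CD14. These lengths were compared only with the span of the gene, not with a transcript. The order of the genes by FPKM depends on them. In the RefSeq table of ARS-UCD2.0, which is a later build than the ARS-UCD1.2 of the counts, TLR2 overlaps RNF175, a gene for a ring finger protein, whereas TLR4 and CD14 overlap no other gene. The sources used here do not state whether reads were counted by strand, so part of the TLR2 count could not be told apart from reads of an overlapping gene.

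TLR4, the lipopolysaccharide receptor, had the highest level per length, with 32.7 ± 16.5 FPKM (SD, n = 16). Among the 13265 genes with enough counts to be tested, its mean FPKM was above that of 82.2%. The deposited FPKM of TLR4 ran from 16.3 in steer 4 over a median of 27.4 to 83.0 in steer 16, which is 5.10 times from lowest to highest. Steers 16, 15 and 5 stood above all others, and the remaining 13 steers lay between 16.3 and 33.5 FPKM. CD14, the co-receptor, had 21.7 ± 6.84 FPKM (SD, n = 16), above 72.6% of the tested genes. Its FPKM ran from 7.87 in steer 14 over a median of 21.1 to 33.9 in steer 16, a range of 4.31 times. TLR2 had 21.0 ± 5.72 FPKM (SD, n = 16), above 71.6% of the tested genes. Its FPKM ran from 12.8 in steer 6 over a median of 20.5 to 36.0 in steer 5, the narrowest range of the genes at 2.81 times.

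Within a steer, and at the gene lengths behind the FPKM, the FPKM of TLR4 was above that of TLR2 in 15 of 16 steers. It was above that of CD14 in 14 of 16. The log2 ratio of TLR4 to TLR2 in FPKM was 0.56 ± 0.50 (SD, n = 16) and that of TLR4 to CD14 was 0.55 ± 0.47 (SD, n = 16). CD14 and TLR2 had no fixed order. CD14 was the higher of both in 9 of 16 steers, and the log2 ratio of 0.012 ± 0.52 (SD, n = 16) was far smaller than its spread between steers. The proportions differed widely between animals. TLR4 was 0.933 times TLR2 in steer 1 and 4.08 times TLR2 in steer 16, with a median of 1.38 times. CD14 was 0.524 times TLR2 in steer 1 and 1.70 times TLR2 in steer 6.

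**Figure D1:**
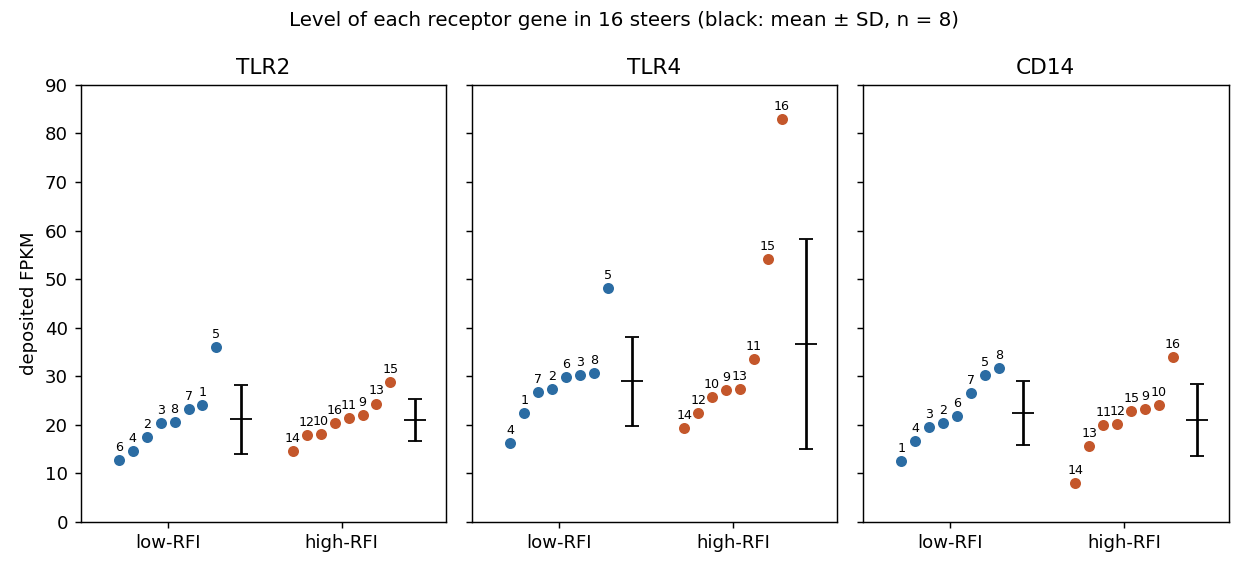
Deposited FPKM (vertical axis) of TLR2, TLR4 and CD14 in each steer, by labelled group; points are steers with their number, and black bars are the mean ± SD of 8 steers. The groups overlap for every gene, and TLR4 reaches 83.0 FPKM in steer 16 and 54.1 in steer 15.

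The high-RFI steers were compared with the low-RFI steers to see whether bacterial sensing receptors differ in blood with feed efficiency. None of the 3 genes passed the test. The edgeR fit, with p-values adjusted by Benjamini-Hochberg over all 13265 genes, called 0% of them at an adjusted p of 0.05, so no gene of the table was called and the members were no exception. At an unadjusted p of 0.05 the edgeR test held 693 genes, 5.22% of those tested, and none of the members was among them. DESeq2 called 7 genes, 0.0333% of the 21016 it tested, and again none of the members.

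For TLR4 the normalized counts of the high-RFI steers ran from 590 over a median of 838 to 2551, with a mean of 1123 ± 664 (SD, n = 8). The low-RFI steers ran from 500 over a median of 879 to 1478, with a mean of 889 ± 281 (SD, n = 8). The ranges overlapped, only steers 15 and 16 of the high-RFI group lay above every low-RFI steer, and the median was lower in the high-RFI group although the mean was higher. The log2 fold change of high-RFI over low-RFI was 0.33 in edgeR (adjusted p = 0.999). DESeq2 gave 0.34 with a standard error of 0.28 and a 95% interval from -0.21 to 0.88, that is from 0.865 to 1.84 times. A two-sided exact permutation test, which went through all 12870 ways to split the steers into groups of 8, gave a difference of 0.23 in log2(normalized count + 1) and p = 0.465 (adjusted over all tested genes 0.998). Most of the edgeR value came with 1 animal, since without steer 16 the log2 fold change was 0.046. With libraries weighted by their quality in limma voom it was 0.081.

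For CD14 the normalized counts of the high-RFI steers ran from 182 over a median of 495 to 783, with a mean of 483 ± 172 (SD, n = 8). The low-RFI steers ran from 289 over a median of 486 to 730, with a mean of 517 ± 152 (SD, n = 8). Both the lowest and the highest value belonged to the high-RFI group, in steers 14 and 16, and the low-RFI steers lay between them. The log2 fold change was -0.10 in edgeR (adjusted p = 0.999). It was -0.098 in DESeq2, with a standard error of 0.24 and a 95% interval from -0.56 to 0.36. The exact permutation test gave p = 0.632 (two-sided, adjusted over all tested genes 0.998). The sign rested on steer 14, without which the log2 fold change was 0.020, and without steer 16 it was -0.23.

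TLR2 was the gene with the closest group means. Its normalized counts ran from 425 over a median of 607 to 834 in the high-RFI steers, with a mean of 607 ± 126 (SD, n = 8). In the low-RFI steers they ran from 371 over a median of 594 to 1044, with a mean of 613 ± 208 (SD, n = 8). Every high-RFI steer lay within the range of the low-RFI steers. The log2 fold change was -0.018 in edgeR (adjusted p = 0.999) and -0.014 in DESeq2, with a standard error of 0.19 and a 95% interval from -0.38 to 0.35. The exact permutation test on log2(normalized count + 1) gave a difference of 0.027 with p = 0.894 (two-sided, adjusted over all tested genes 0.998), so the sign of this small value turned with the scale.

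The intervals leave room for differences of moderate size. For TLR2 they reached from 0.768 to 1.28 times and for CD14 from 0.679 to 1.29 times, so the data do not show that the groups were alike.

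What set these genes apart from most others of their level was the spread between steers. On the scale of log2(normalized count + 1), the SD over the 16 steers was 0.58 for TLR4, 0.52 for CD14 and 0.37 for TLR2. The median SD of genes within 0.5 log2 units of the same mean count was 0.17 in each case. The SD of TLR4 was larger than that of 95.7% of 1308 such genes, the SD of CD14 larger than that of 94.5% of 2005, and the SD of TLR2 larger than that of 87.9% of 1849. The coefficient of variation of the normalized counts was 50.4% for TLR4, 31.6% for CD14 and 27.2% for TLR2, several times the counting error. By group, the SD of TLR4 was 0.70 in the high-RFI steers and 0.44 in the low-RFI steers, that of CD14 0.62 and 0.45, and that of TLR2 0.30 and 0.46. For CD14 this rested on steer 14, without which the SD of the high-RFI steers was 0.34, below that of the low-RFI steers. Without steer 16 the SD of TLR4 in the high-RFI steers was 0.48, and without steer 5 that of TLR2 in the low-RFI steers was 0.34. These differences in spread were not tested. In whole blood, fewer myeloid cells and less RNA per cell cannot be told apart.

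**Figure D2:**
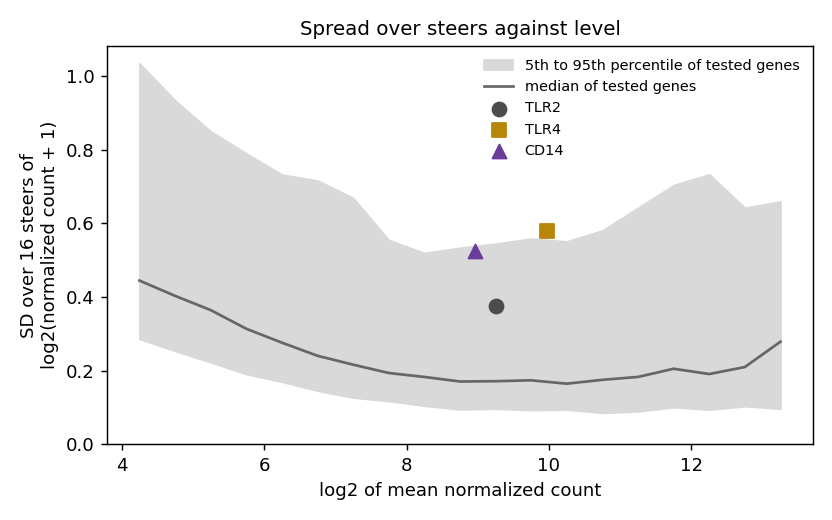
SD over 16 steers of log2(normalized count + 1) (vertical axis) against log2 of the mean normalized count (horizontal axis); the grey line and band are the median and the 5th to 95th percentile of tested genes at each level, and symbols are the receptor genes. All lie above the median line of their level, with TLR4 at 0.58, CD14 at 0.52 and TLR2 at 0.37.

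Steer by steer, the genes moved partly together. In 4 steers (5, 8, 15 and 16) all 3 genes were above their own mean over the steers, in 4 steers (2, 4, 12 and 14) all 3 were below it, and in the remaining 8 the signs were mixed. Steers 2, 8, 12 and 16 were placed there in part by very small log2 deviations. These were -0.013 for CD14 in steer 2 and -0.024 in steer 12. In steer 8 they were 0.019 for TLR2 and 0.028 for TLR4, and in steer 16 0.0031 for TLR2. How many steers unrelated genes would place on 1 side was not tested. Steer 5 was high throughout, with deviations of 0.82 for TLR2, 0.68 for TLR4 and 0.56 for CD14 on the log2 scale. Steer 14 was low throughout, with -0.47 for TLR2, -0.64 for TLR4 and -1.38 for CD14. These animals, 1 from each group, held all receptors on the same side of the mean.

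Other animals separated the genes. In steer 16, TLR4 was 1.47 above its mean and CD14 0.73 above, both the highest of all steers, while TLR2 lay at its mean with a deviation of 0.0031. In steer 6 TLR2 was 0.67 below its mean, the lowest of all steers, with TLR4 at -0.0062 and CD14 at 0.087. In steer 1 TLR2 was 0.24 above its mean, TLR4 was at -0.43 and CD14 at -0.71. The distance between the highest and the lowest of the deviations within a steer had a median of 0.56 log2 units and ran from 0.075 in steer 3 to 1.46 in steer 16.

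**Figure D3:**
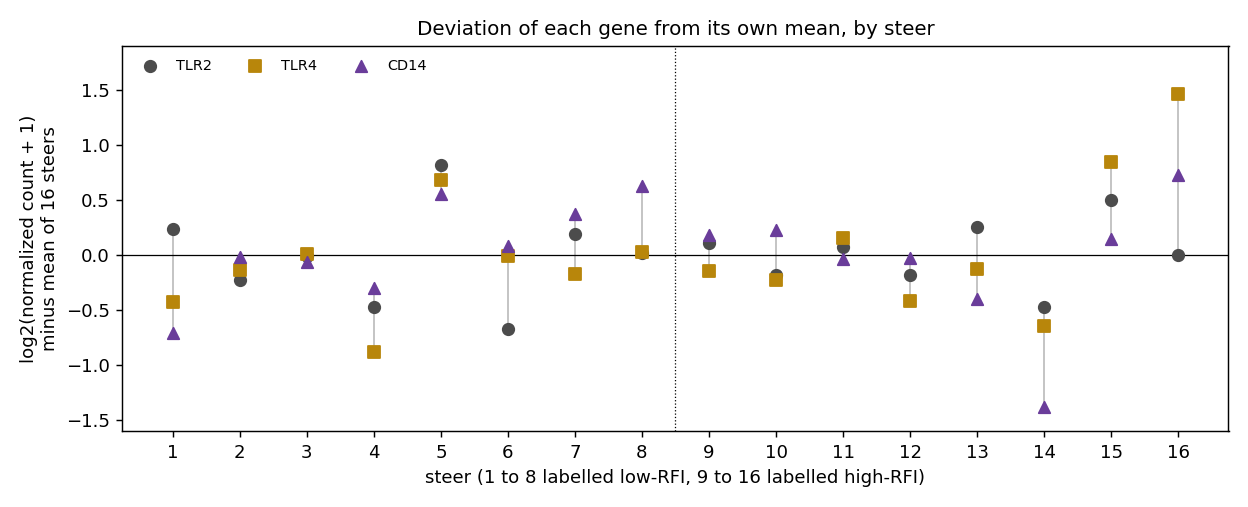
Deviation of log2(normalized count + 1) from its mean over 16 steers (vertical axis) for TLR2 (circles), TLR4 (squares) and CD14 (triangles), by steer (horizontal axis), with grey lines joining the genes of a steer. Steers 5 and 15 are high and steers 4 and 14 low for all genes, and steer 16 has TLR4 at 1.47 but TLR2 at 0.0031.

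Over the 16 steers the closest pair was TLR4 with its co-receptor CD14, with a Pearson r of 0.647 (permutation p = 0.0102, adjusted 0.0611) and a Spearman rho of 0.574 (permutation p = 0.0218, adjusted 0.0653). The correlations were computed on log2(normalized count + 1), with two-sided p from 100000 permutations and Benjamini-Hochberg adjustment over the 6 coefficients of the 3 pairs. Neither coefficient passed 0.05 after adjustment. The r was 0.698 within the high-RFI steers (exact permutation p = 0.0646, adjusted 0.208) and 0.694 within the low-RFI steers (exact permutation p = 0.0604, adjusted 0.181). With each steer taken relative to its group mean r was 0.695 (permutation p = 0.00804, adjusted 0.0482). The rho of that setting was 0.600 and did not pass 0.05 (permutation p = 0.0168, adjusted 0.0504). Without steers 15 and 16, the farthest from the median of TLR4, r was 0.644 (permutation p = 0.0171, adjusted 0.103). By rank the groups were less alike, with a rho of 0.452 within the high-RFI steers (exact permutation p = 0.267, adjusted 0.321) and of 0.738 within the low-RFI steers (exact permutation p = 0.0458, adjusted 0.181). Without steers 15 and 16 rho was 0.499 (permutation p = 0.0726, adjusted 0.135). The difference between the groups was not tested.

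TLR2 and TLR4, both signalling receptors, had an r of 0.518 (permutation p = 0.0427, adjusted 0.0854) and a rho of 0.441 (permutation p = 0.0896, adjusted 0.134). Within the high-RFI steers r was 0.544 (exact permutation p = 0.170, adjusted 0.321) and within the low-RFI steers 0.608 (exact permutation p = 0.0988, adjusted 0.198). By rank the order of the groups was the opposite, with a rho of 0.690 within the high-RFI steers (exact permutation p = 0.0694, adjusted 0.208) and of 0.286 within the low-RFI steers (exact permutation p = 0.501, adjusted 0.582). Without steers 5 and 6, the farthest from the median of TLR2, r was 0.529 (permutation p = 0.0518, adjusted 0.135). Steer 16, with its high TLR4 and average TLR2, went against the relation. Without it r was 0.700, the highest of any steer left out (permutation p = 0.00427, adjusted 0.0256). The rho without steer 16 was 0.496 and did not pass 0.05 (permutation p = 0.0613, adjusted 0.106).

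TLR2 and CD14 had the weakest relation, with an r of 0.361 (permutation p = 0.167, adjusted 0.201) and a rho of 0.235 (permutation p = 0.378, adjusted 0.378). Within the high-RFI steers r was 0.480 (exact permutation p = 0.224, adjusted 0.321) and within the low-RFI steers 0.323 (exact permutation p = 0.438, adjusted 0.582). The rho was 0.119 within the high-RFI steers (exact permutation p = 0.793, adjusted 0.793) and 0.238 within the low-RFI steers (exact permutation p = 0.582, adjusted 0.582). Without steers 5 and 6 r was 0.342 (permutation p = 0.236, adjusted 0.283). Without steer 14, which had low values of both, r was 0.187, the lowest of any steer left out.

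**Figure D4:**
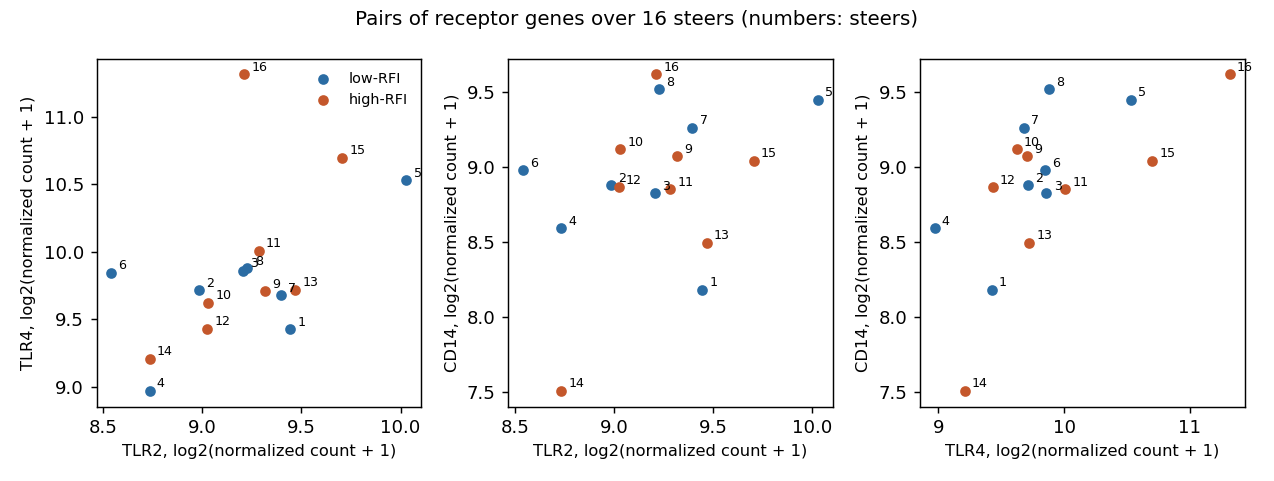
log2(normalized count + 1) of each pair of receptor genes over 16 steers, coloured by labelled group and numbered by steer. The points of TLR4 and CD14 rise together (r = 0.647), those of TLR2 and CD14 are more scattered (r = 0.361), and steer 16 lies apart from the others in the panel of TLR2 and TLR4.

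Over all steers the members had a low r with sequencing depth. Their counts had already been divided by size factors that follow the depth, so a low r is partly built in. With log2 total counts, r was 0.170 for TLR2 (permutation p = 0.528, adjusted 0.792), 0.197 for TLR4 (permutation p = 0.449, adjusted 0.792) and 0.105 for CD14 (permutation p = 0.681, adjusted 0.817). The Spearman rho was 0.197 (permutation p = 0.463, adjusted 0.792), 0.232 (permutation p = 0.384, adjusted 0.792) and -0.026 (permutation p = 0.926, adjusted 0.926). Without steers 4 and 6, the farthest from the median depth, r was 0.348, -0.125 and -0.023 for TLR2, TLR4 and CD14.

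Set among all tested genes, the receptors were not the nearest to each other. The r of TLR4 with CD14 was exceeded by 737 of the other 13264 genes for TLR4, or 5.56%, and by 503 genes for CD14, or 3.79%. The r of TLR2 with TLR4 was exceeded by 1010 genes for TLR2, or 7.61%, and by 1535 genes for TLR4, or 11.6%. The r of TLR2 with CD14 was exceeded by 2130 genes for TLR2, or 16.1%, and by 2387 for CD14, or 18.0%. Each receptor thus lay in the upper part of the distribution of the others, but many genes followed it more closely. These places are descriptions over the same 16 libraries, and genes that share a library are not independent.

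Among the 13264 other tested genes, TLR4 had the most companions by Pearson r, with 485 genes at an r above 0.7 and 204 below -0.7. CD14 had 285 and 35, and TLR2 had 250 and 83. No such count was made by rank, and single extreme steers can raise r. The gene most like TLR4 was ENSBTAG00000002455, with an r of 0.949 and a rho of 0.912 over the 16 steers and a mean of 31.9 FPKM. The gene most like CD14 was ENSBTAG00000015520, with an r of 0.882, a rho of 0.665 and a mean of 37.6 FPKM. The gene most like TLR2 was ENSBTAG00000020034, with an r of 0.883, a rho of 0.824 and a mean of 191 FPKM. No table used here pairs these identifiers with a symbol. For each receptor the 100 nearest genes were listed from all tested genes, the other receptors aside. TLR4 and CD14 shared 8 genes, 8% of each list, TLR2 and TLR4 shared 2 genes, 2% of each, and TLR2 and CD14 shared 0. Each list holds only 100 of the 13265 tested genes, so these overlaps do not show that the receptors had unlike companions. The overlap of unrelated lists was not computed.

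**Figure D5:**
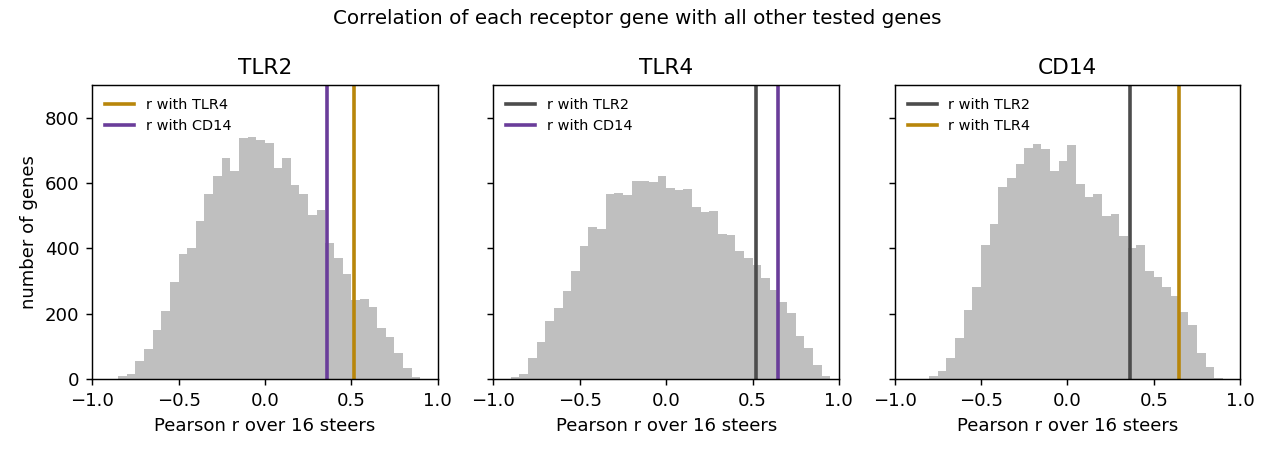
Number of genes (vertical axis) by their Pearson r over 16 steers (horizontal axis) with TLR2, TLR4 or CD14, for 13264 other tested genes; vertical lines mark the r of the other receptors. The lines lie on the right shoulder of each distribution and not at its end, as for TLR4, where the line of CD14 stands at 0.647 and the most similar gene reached 0.949.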

How the data were processed

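Whole-blood RNA-seq libraries of 16 steers were grouped by their labels. According to the submitters' notes and the paper, the authors used Trimmomatic 0.39 for trimming and HISAT2 2.2.1 for alignment to ARS-UCD1.2, marked duplicates and counted reads per gene with GenomicAlignments. Not given in the sources used here are the annotation, the strand setting and the treatment of duplicates. Raw counts per gene were deposited. The normalized counts deposited beside them, a signal, are these counts divided by 1 size factor per steer, from 0.622 to 1.46. The deposited FPKM divide these by gene length and a common library size. All columns were mapped to a steer.

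Counts were compared with edgeR 4.0.16 (TMM, filterByExpr, robust quasi-likelihood fit), and with DESeq2 1.42.0 and limma 3.58.1 in R 4.3.3 as alternatives, after tests on simulated data. Exact permutation tests and correlations used log2(normalized count + 1) in Python 3.11.15 with numpy 2.4.6. The comparisons of spread, depth, nearest lists and principal component were chosen after seeing the data. The members and lists were chosen with earlier results of these data known. The genes named were the members and, for each, the most correlated of its 3 nearest genes. Lists of Toll-like receptor pathway genes and of blood cell markers had been drawn up by symbol, but 0 of the 27607 Ensembl identifiers had a match in the RefSeq table used here. These lists, and the check of the tissue by its markers, were therefore not analysed here, and no sequence was used. The p-values judge a group difference or a correlation against the variation between steers, and they do not test that variation itself.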

Additional observations from a re-analysis of the deposited data

Results flagged for a closer look

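In each of the 6 sets of 8 steers (3 genes in each labelled group), the steer at either end of the range of normalized counts was compared with the next one. TLR4 in steer 5, labelled low-RFI, had the widest gap. It had a normalized count of 1478 while the next low-RFI steer had 941, a gap of 0.550 of the group's range, above the 95% critical value of Dixon's test for 8 samples. On the log2(normalized count + 1) scale, tried after seeing the data, the gap was 0.417 of the range and below that critical value. About 1 group in 20 is expected to pass this value by chance. The same steer had the highest TLR2, 1044 against 695 in the next of its group, at 0.519 of the range and just under the critical value. Without steer 5 the log2 fold change of TLR4 was 0.47 (edgeR). Steer 16, the highest for TLR4 in the high-RFI group, reached 0.453 of the range.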

How the results depend on the processing

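No paired analysis was possible because the groups are made of different steers and no label matches them in pairs. Among the 6 alternatives that keep all steers, no member passed an adjusted p of 0.05, and TLR4 (0.081 to 0.34) and CD14 (-0.14 to -0.098) kept their sign. TLR2 was -0.018 in edgeR but 0.059 in limma voom, which weighted samples by quality, 0.027 in limma on log2(FPKM + 0.1) and 0.024 on log2(FPKM + 1). Leaving out 1 steer at a time, the log2 fold change ran from -0.098 to 0.14 for TLR2, from 0.046 to 0.47 for TLR4 and from -0.23 to 0.020 for CD14, with no adjusted p of any member below 0.886. The number of genes past FDR 0.05 was 0 in edgeR, 7 in DESeq2 and 13 in limma voom, and 0 to 25 without 1 steer, with 25 without steer 14 and 2 without steer 16. The r ran without 1 steer from 0.435 to 0.700 for TLR2 and TLR4, from 0.187 to 0.458 for TLR2 and CD14 and from 0.580 to 0.678 for TLR4 and CD14. For TLR4 and CD14 the adjusted p of r crossed 0.05 in 7 of these 16 cases. It also did with deviations from the group means (r = 0.695), so this pair lies at the threshold. By rank not all of these passed, as without steer 8 (rho = 0.536, permutation p adjusted 0.0967). For TLR2 and TLR4 the adjusted p of r crossed 0.05 in 2 cases, without steer 6 and without steer 16. The rho of that pair passed in neither (permutation p adjusted 0.0622 and 0.106). The causes were not tested. Counting error was at most 7.96%, and what depth adds beyond it was not tested.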

Other observations

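The first principal component of log2(normalized count + 1) over all tested genes other than the receptors held 17.2% of the variance between steers, and its ends were both labelled high-RFI, steer 16 at the top and steer 14 at the bottom. This component was computed after the data were examined. Its sign was set so that its r with TLR4 was positive, which also decides which end is called the top. Genes were not scaled to equal spread, so the component leans towards genes that vary widely between steers, as the receptors do. The p-values given next do not allow for this. All receptors had a positive r with the component. The r was 0.837 for TLR4 (permutation p = 7.00e-05, adjusted 0.000420), 0.794 for CD14 (permutation p = 0.000460, adjusted 0.000920) and 0.673 for TLR2 (permutation p = 0.00513, adjusted 0.00640). The Spearman rho was 0.818 (permutation p = 0.000240, adjusted 0.000720), 0.600 (permutation p = 0.0153, adjusted 0.0153) and 0.676 (permutation p = 0.00533, adjusted 0.00640). Without steers 14 and 16 the r was 0.838 for TLR4 and 0.823 for TLR2 but 0.477 for CD14, so that the relation of CD14 rested in part on these animals. In size, the r of TLR4 with the component was above that of 98.4% of the tested genes, that of CD14 above 97.2% and that of TLR2 above 92.0%. The component and the receptors come from the same libraries and size factors, and the cell types behind the component were not analysed here.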
